A study of Mus musculus with 6 samples.

Results

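The growth hormone and STAT5 axis was described here through 10 genes of the 34745 in the deposited table, each matched by its symbol: the receptor gene Ghr, the transducer gene Stat5b, the feedback genes Socs2 and Cish, the repressor genes Bcl6 and Cux2, the endocrine targets Igf1 and Igfals, and the male-biased liver genes Hsd3b5 and Selenbp2. All 10 passed the filter on low counts, Cux2 only through its HKO libraries. RNA was sequenced from the livers of C57BL/6 mice aged 12 weeks, 48 h after partial hepatectomy (PHx), an operation that takes out part of the liver and sets off regrowth. The 3 libraries labelled HKO came from Sox9HKO mice and the 3 labelled WT from Sox9f/f mice, which carry the floxed Sox9 allele. The labels name liver as the tissue and hepatocyte as the cell type. The sources used here do not give the Cre that deletes Sox9, the sex of the animals or how many mice the libraries came from. The p-values therefore measure only how these libraries scatter, and that scatter may be technical.

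Growth hormone from the pituitary binds its receptor on hepatocytes, the kinase JAK2 is activated, and STAT5B is phosphorylated and enters the nucleus. STAT5 then drives the genes for the circulating growth factor IGF-1 and for the acid-labile subunit that holds it in blood, together with inhibitors that damp the receptor. In rodents the hormone is released in pulses in males and more steadily in females. This pattern sets the sex-biased expression of many liver genes, with BCL6 and CUX2 among the repressors that take part.

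The libraries held 16659778 to 21168233 counts. Sox9 stood at 6.34, 4.30 and 4.78 CPM in libraries HKO 1, HKO 2 and HKO 3 and at 6.94, 13.7 and 11.4 CPM in WT 1, WT 2 and WT 3 (CPM, library-scaled counts after TMM normalization). Sox9 was lower in HKO, with a log2 fold change of -1.05 (adjusted p = 0.0284 by the edgeR test described with the counts of calls), and lost the call without HKO 2, HKO 3, WT 2 or WT 3 (adjusted p = 0.0503, 0.0862, 0.0929 and 0.0975). HKO 2 stood apart from the other libraries. Mitochondrial genes took 25.9% of its counts and 12.1% to 16.3% in the other 5, and it lay alone on the second principal component, which held 18.8% of the variance. Their part in the results was not tested beyond leaving out HKO 2 or the mitochondrial genes. HKO 2 held Xist, the RNA that coats the inactive X chromosome in female cells, at 72.5 CPM, where the other 5 libraries held 0.107 to 0.333 CPM. The Y-linked genes Ddx3y, Eif2s3y, Kdm5d and Uty were present in all 6 libraries, HKO 2 included, where they stood at 30.1, 23.0, 10.8 and 8.84 CPM. In the other 5 libraries they ran from 42.1 to 66.6, 41.0 to 50.3, 11.2 to 22.1 and 11.1 to 15.2 CPM. The levels in HKO 2 were 64.3%, 55.2%, 89.5% and 79.3% of the mean of HKO 1 and HKO 3, and they were the lowest of the 6 libraries for all 4 genes. HKO 2 thus held both Xist and Y-linked RNA. Of the 30 female-biased liver genes listed for this work it was the highest of the 6 libraries in 25 (83.3%), against 16.4% of all tested genes. Only 18 of the 30 passed the count filter, so these shares rest on unlike sets of genes. Of the 24 male-biased genes it was the lowest in 15 (62.5%), against 14.7% of all tested genes. Because the 10 genes belong to a pathway with sex-biased output, values without HKO 2 are given beside those with it for the 10 genes and the gene lists.

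**Figure D1:**
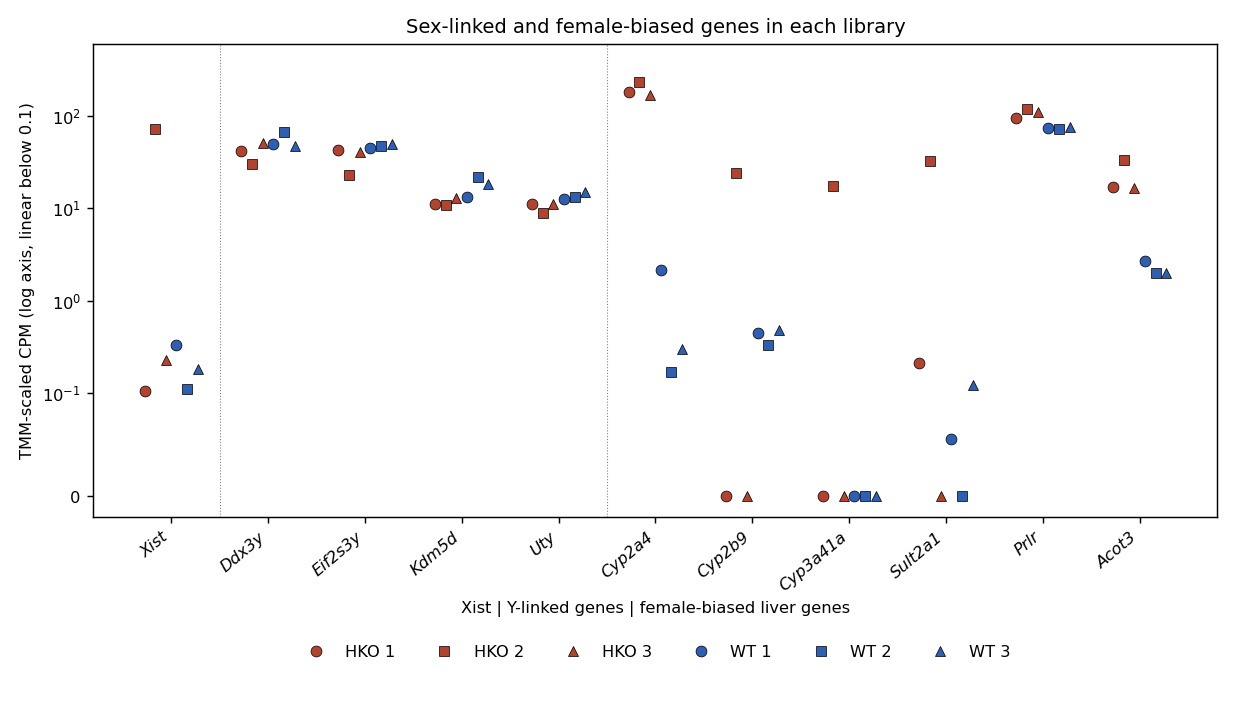
TMM-scaled CPM (log axis, linear below 0.1) of Xist, 4 Y-linked genes and 6 female-biased liver genes in each library, with HKO in red, WT in blue and the replicate number as the marker shape. HKO 2 alone held Xist at 72.5 CPM and Cyp2b9, Cyp3a41a and Sult2a1 above 10 CPM, while Cyp2a4, Prlr and Acot3 were higher in all 3 HKO libraries than in WT.

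Markers of other liver cells also differed. All 12 Kupffer cell and macrophage markers were higher in HKO, with a summed level of 290 to 446 CPM in HKO and 193 to 204 CPM in WT. The summed level of 10 endothelial markers was 538 CPM in HKO 2, 173 and 208 CPM in HKO 1 and HKO 3, and 114 to 165 CPM in WT. The 10 stellate cell and fibroblast markers summed to 576 CPM in HKO 2 and to 95.3 to 160 CPM elsewhere. Of the 8 cholangiocyte markers only Spp1 and Sox9 passed the count filter, and both were lower in HKO. Sox9 is the gene deleted in HKO, so its fall does not describe cholangiocytes, and Spp1 alone is left. Of the 10 lymphocyte markers Ighm, Igkc and Jchain were higher, while all 6 neutrophil markers lay below the filter. Without HKO 2 the median log2 fold change of the endothelial markers went from 1.07 to 0.39 and that of the stellate cell and fibroblast markers from 1.19 to 0.15. The 9 hepatocyte markers found in the table summed to 81440 to 85710 CPM in HKO and 88717 to 111423 CPM in WT, without overlap. Most of this sum was Alb, the albumin gene, at 49761 to 53180 CPM in HKO and 61219 to 77671 CPM in WT, which did not pass the test (log2 fold change -0.43, adjusted p = 0.219). Apoa2 and Cps1 were higher, Serpina1a was lower and 6 of the 9 were not called, while Hnf4a was also higher without HKO 2. In these liver samples, fewer cells of a type and less RNA per cell cannot be told apart.

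STAT dimers of this family bind the palindrome TTCNNNGAA. It was searched in 300-base RefSeq promoter windows of GRCm38.p6 (250 bases before a start site and 50 after), which were found for 9 of the 10 genes, all but Socs2, in 15 windows. The letters occurred in windows of 3 of the 9 genes, Cish, Bcl6 and Igfals, where 9.55% of all 27025 genes had a match. By window the match was in 5 of the 15 and in 8.30% of all 32851. The palindrome reads the same on both strands. The form with a longer spacer, TTCNNNNGAA, was found only for Hsd3b5 among the 9 genes, in 1 of the 15 windows, and for 8.01% of all genes and in 6.95% of all windows. A Bcl6 window held 3 matches and the Cish window 2, which lie 2 bases apart, and 0.457% of all windows held at least 2. The stretch of 30 bases around the match nearest to any RefSeq start site of the gene is shown, in the direction of the gene. Binding at these matches was not measured. Capitals mark the match.
Cish, chr9:107296654-107296683, plus strand: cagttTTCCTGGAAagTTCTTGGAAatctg
Bcl6, chr16:23981352-23981381, minus strand: atcgactacgTTCCGGGAAtgagagggctg
Igfals, chr17:24878163-24878192, plus strand: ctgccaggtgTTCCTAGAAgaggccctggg
Hsd3b5, chr3:98645718-98645747, minus strand: actaaggaggTTCTGTAGAAacagtcctgc
The Cish pair begins at the base of the RefSeq start site. The Bcl6, Igfals and Hsd3b5 matches lie 88, 58 and 203 bases before theirs. For Cish and Bcl6 this start site lies inside the gene as placed in the deposited table, and for Igfals and Hsd3b5 upstream of it. The other Bcl6 window, at the start of the gene in that table, held 1 match, 118 bases before its start site. The Igfals window nearest to the gene start in that table held 0. A match is a description of the letters in these windows.

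In HKO the 2 male-biased genes fell, Socs2 and Cux2 rose, and the receptor and STAT5B genes did not pass the test. Selenbp2 was at 14.1% and Hsd3b5 at 21.5% of the WT mean, Socs2 was 2.31-fold and Cux2 7.63-fold higher. On TMM-scaled CPM Igf1 and Igfals lay higher in every HKO library than in any WT library. They did not pass the threshold with all 6 libraries (adjusted p = 0.0659 and 0.0590), and did so without HKO 2 (adjusted p = 0.0297 and 0.0322). Of the 10 genes 2 were higher and 2 lower at an adjusted p below 0.05 (edgeR quasi-likelihood test, Benjamini-Hochberg adjusted over 12556 genes), and 6 did not pass. Cux2, with 2, 15 and 4 counts in WT, entered the test only because it was high in HKO. A lower call was hardly open to it. Over all tested genes 12.1% were higher and 11.2% lower, 23.2% in all. For 7 of the 10 genes every HKO library lay on one side of every WT library on TMM-scaled CPM, against 44.2% of all tested genes. Of the 7, Bcl6 and Igfals overlapped on the deposited FPKM. The median log2 fold change of the 10 genes was 0.27, or 0.35 without HKO 2, where that of all genes tested was 0.02. HKO 2 was the lowest HKO library in 7 of the 10 genes (70%), against 35.7% of all tested genes. Without HKO 2, 4 of the 10 genes were higher and 2 lower, while 12.5% of all genes were higher and 12.2% lower.

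**Figure D2:**
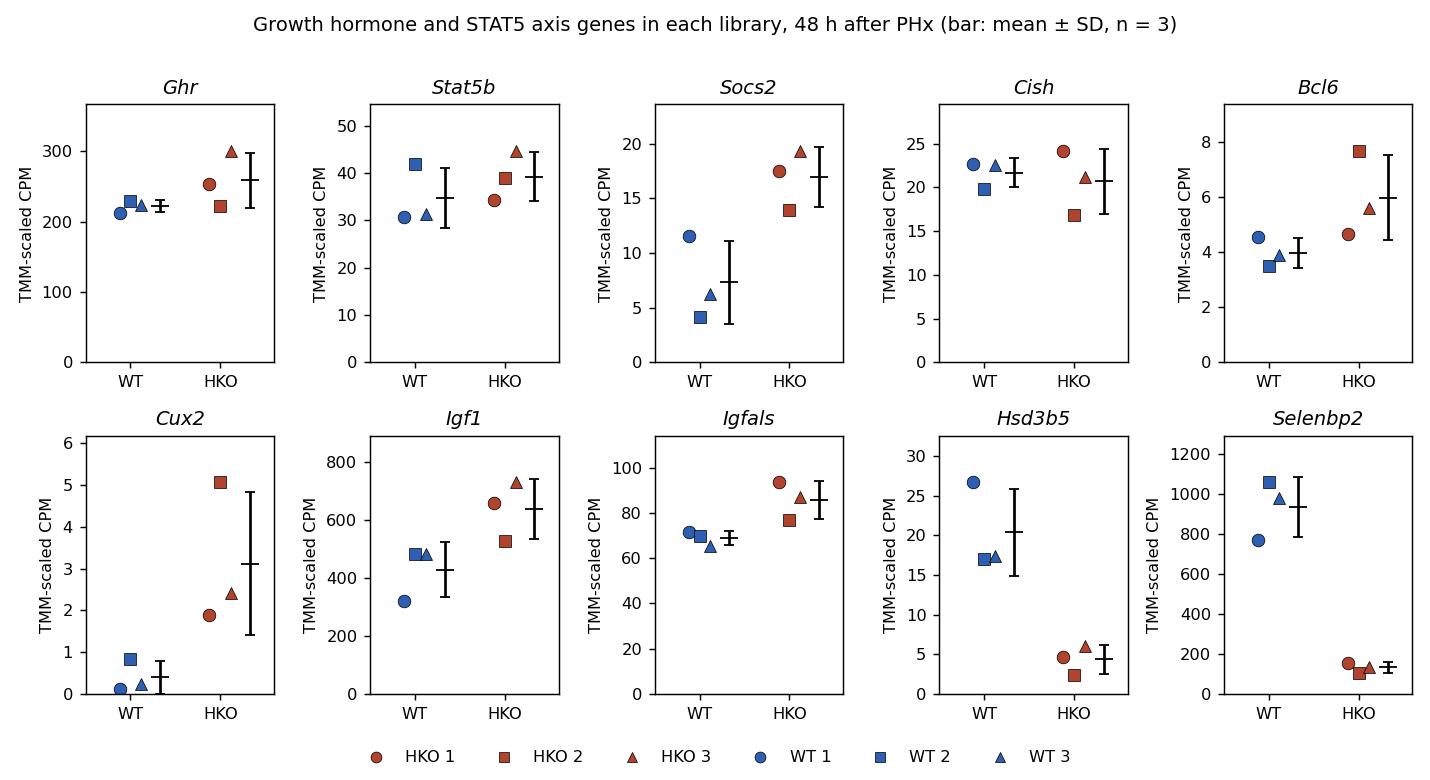
TMM-scaled CPM of the 10 genes in each library, with WT in blue, HKO in red, the replicate number as the marker shape, and the mean ± SD (n = 3) beside each group. Selenbp2 and Hsd3b5 lie far lower in all 3 HKO libraries, Socs2 and Cux2 lie higher, and Ghr, Stat5b and Cish overlap between the groups.

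Levels between genes were compared per length, on the deposited FPKM (fragments scaled to gene length and library size). In WT the order was Selenbp2 (266 ± 30.4 FPKM), Igfals (32.7 ± 2.87), Igf1 (32.4 ± 5.85), Ghr (18.4 ± 0.219), Hsd3b5 (13.3 ± 4.27), Stat5b (5.89 ± 0.868), Cish (2.002 ± 0.233), Socs2 (0.544 ± 0.311), Bcl6 (0.537 ± 0.10) and Cux2 (0.0281 ± 0.0267; SD, n = 3 throughout). Igfals and Igf1 did not differ beyond their spread, nor did Socs2 and Bcl6. In HKO the order began with Igf1 (48.7 ± 10.2 FPKM), Igfals (40.8 ± 5.92) and Selenbp2 (37.9 ± 9.11), whose values overlapped. Ghr (21.5 ± 4.31 FPKM) and Stat5b (6.70 ± 1.04) came next. Hsd3b5 (2.87 ± 1.29 FPKM), Cish (1.92 ± 0.428), Socs2 (1.24 ± 0.262) and Bcl6 (0.795 ± 0.160) followed, each overlapping its neighbour, and Cux2 (0.221 ± 0.107) was last. Selenbp2 thus ranked first in WT and the third in HKO. Within each HKO library Igf1 lay above Igfals, Hsd3b5 above Cish and Cish above Socs2 on the deposited FPKM. The order of Igfals and Selenbp2, and that of Socs2 and Bcl6, changed between HKO libraries. The length behind the deposited FPKM differed from the summed exon length in GENCODE M21, at 10850 against 6419 bases for Cish and 2111 against 3167 bases for Igfals. Scaled by the GENCODE length, Igfals moved from place 2 to place 4 in both groups and Ghr from place 4 to place 3. Igf1 was then at place 2 in WT and Selenbp2 at place 2 in HKO. In HKO Cish then lay above Hsd3b5, at 3.23 against 2.83 CPM per kb.

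**Figure D3:**
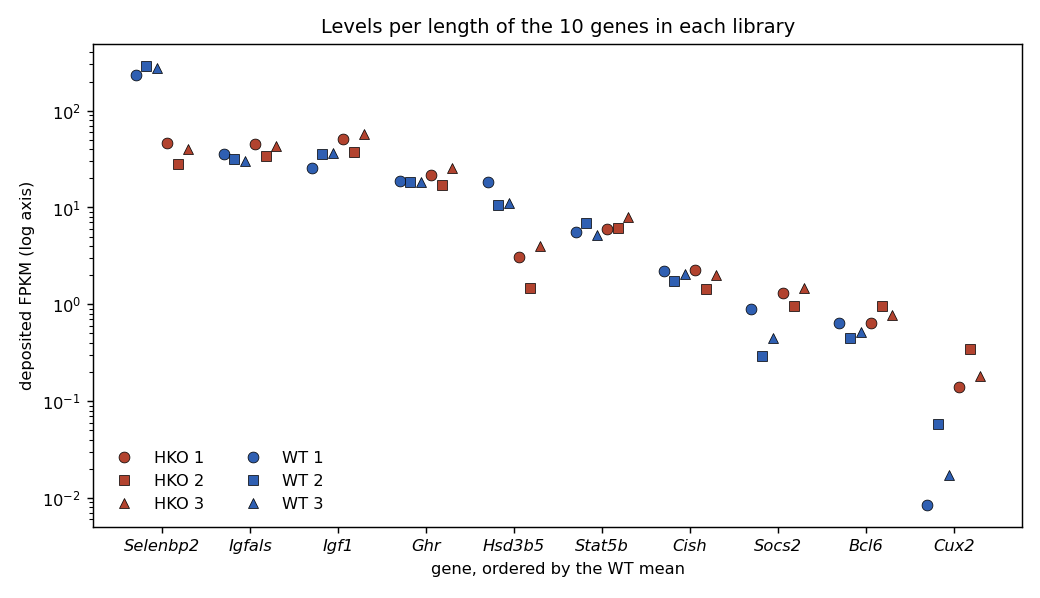
Deposited FPKM (log axis) of the 10 genes in each library, ordered by the WT mean, with WT in blue and HKO in red. The range runs from 289.8 FPKM for Selenbp2 in WT 2 to 0.00848 FPKM for Cux2 in WT 1, and Selenbp2 in HKO lies among Igfals and Igf1.

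The receptor and transducer genes differed little. Ghr (ENSMUSG00000055737, chromosome 15, 3317760 to 3583492, minus strand), which encodes the growth hormone receptor, stood at 254, 222 and 301 CPM in libraries HKO 1, HKO 2 and HKO 3 and at 213, 229 and 224 CPM in WT 1, WT 2 and WT 3. HKO 2 lay among the WT values and the other HKO libraries above them. The log2 fold change was 0.22 (95% interval -0.07 to 0.51, adjusted p = 0.229). Stat5b (ENSMUSG00000020919, chromosome 11, 100780731 to 100850724, minus strand), which encodes the main STAT5 protein of the liver, stood at 34.2, 38.9 and 44.7 CPM in HKO and at 30.8, 42.0 and 31.3 CPM in WT. The groups overlapped, with WT 2 above HKO 1 and HKO 2, and the log2 fold change was 0.18 (95% interval -0.18 to 0.54, adjusted p = 0.437). Both intervals leave room for changes of the size seen in Igfals.

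Of the feedback genes, Socs2 rose and Cish did not pass. Socs2 (ENSMUSG00000020027, chromosome 10, 95385362 to 95417180, minus strand), which encodes an inhibitor that marks the receptor for degradation, was measured at 17.5, 13.96 and 19.3 CPM in libraries HKO 1, HKO 2 and HKO 3. In WT 1, 2 and 3 it was measured at 11.6, 4.16 and 6.22 CPM. Every HKO library lay above every WT library, with WT 1 the nearest. Socs2 rose by 1.21 on the log2 scale (95% interval 0.43 to 1.99, adjusted p = 0.0359), and an exact permutation of the libraries gave a two-sided p of 0.1, the lowest possible with 3 against 3. The call was lost without HKO 1, HKO 3, WT 2 or WT 3 (adjusted p = 0.0893, 0.0987, 0.0735 and 0.128) and held without HKO 2 (log2 fold change 1.33, adjusted p = 0.0263). Cish (ENSMUSG00000032578, chromosome 9, 107296026 to 107302784, plus strand), an inhibitor of the same family and a classic STAT5 target, stood at 24.2, 16.8 and 21.1 CPM in HKO and at 22.7, 19.8 and 22.5 CPM in WT. Its groups overlapped, and the log2 fold change was -0.06 (95% interval -0.41 to 0.28, adjusted p = 0.784). The sign turned without HKO 2, at 0.065. Exons of Cish overlap predicted genes on the opposite strand, so its counts are uncertain. The ratio of Socs2 to Cish within a library was 0.823 ± 0.0949 in HKO and 0.332 ± 0.157 in WT (SD, n = 3), without overlap (two-sided exact permutation p = 0.1, and 0.15 adjusted over the 3 ratios computed).

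The repressor gene Cux2 rose. Cux2 (ENSMUSG00000042589, chromosome 5, 121856366 to 122050102, minus strand), which encodes a homeobox repressor found in female mouse liver, stood at 1.88, 5.06 and 2.42 CPM in libraries HKO 1, HKO 2 and HKO 3 and at 0.111, 0.843 and 0.244 CPM in WT 1, WT 2 and WT 3. These levels rest on 35, 87 and 53 counts in HKO and on 2, 15 and 4 counts in WT. The gene thus passed the count filter only through HKO. HKO 2, the library with Xist, was the highest, and HKO 1 and HKO 3 also lay above every WT value. Cux2 changed by 2.93 on the log2 scale (95% interval 1.37 to 4.499, adjusted p = 0.0194). It was 2.41 without HKO 2 (adjusted p = 0.0218) and 4.09 without WT 2, and the call was lost without WT 3 (log2 fold change 2.69, adjusted p = 0.0826). Its relative Cux1 did not pass the test, at 23.8 to 26.0 CPM in HKO and 25.2 to 25.8 CPM in WT.

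Bcl6 did not pass. Bcl6 (ENSMUSG00000022508, chromosome 16, 23965052 to 23988852, minus strand) encodes a zinc finger repressor that can occupy STAT5 sites and is higher in male liver. It stood at 4.67, 7.68 and 5.61 CPM in HKO and at 4.56, 3.48 and 3.91 CPM in WT. The groups were separated by the narrow gap between HKO 1 and WT 1, and on the deposited FPKM the same libraries overlapped, at 0.643 and 0.646. The log2 fold change was 0.59 (95% interval 0.04 to 1.13, adjusted p = 0.107), and 0.37 without HKO 2 (adjusted p = 0.238), the library with the highest value. Exons of Bcl6 overlap those of a predicted gene on the opposite strand.

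The endocrine targets lay higher in HKO by smaller amounts. Igf1 (ENSMUSG00000020053, chromosome 10, 87858265 to 87937042, plus strand), which encodes IGF-1, stood at 656, 527 and 729 CPM in libraries HKO 1, HKO 2 and HKO 3 and at 319, 483 and 483 CPM in WT 1, WT 2 and WT 3. HKO 2 was close to WT 2 and WT 3. The log2 fold change was 0.57 (95% interval 0.13 to 1.02, adjusted p = 0.0659). DESeq2 called it (log2 fold change 0.57, adjusted p = 0.0200). Macrophages also make IGF-1, and all 12 macrophage markers were higher in HKO, with a median log2 fold change of 0.999. Their part in the Igf1 level was not tested. Igfals (ENSMUSG00000046070, chromosome 17, 24878770 to 24882008, plus strand), which encodes the acid-labile subunit of the circulating IGF complex, stood at 93.5, 77.0 and 86.9 CPM in HKO and at 71.8, 69.7 and 65.4 CPM in WT. On the deposited FPKM the Igfals groups overlapped, at 34.1 in HKO 2 and 35.9 in WT 1. For Igfals the log2 fold change was 0.32 (95% interval 0.08 to 0.55, adjusted p = 0.0590). Without HKO 2 the log2 fold changes were 0.69 for Igf1 and 0.39 for Igfals, both past the threshold. The ratio of Igf1 to Igfals overlapped between the groups, at 7.41 ± 0.845 in HKO and 6.26 ± 1.59 in WT (two-sided exact permutation p = 0.5, the same after adjustment).

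The 2 male-biased genes fell, and both calls held with each of the 6 libraries left out in turn. Selenbp2 (ENSMUSG00000068877, chromosome 3, 94693556 to 94704413, plus strand), a gene of the selenium-binding proteins, stood at 157, 105 and 134 CPM in libraries HKO 1, HKO 2 and HKO 3 and at 768, 1057 and 982 CPM in WT 1, WT 2 and WT 3. The lowest WT value was several times the highest HKO value. The log2 fold change was -2.82 (95% interval -3.27 to -2.38, adjusted p = 0.000214), and it ran from -2.98 to -2.68 with a library left out. Selenbp1, a near copy on the same chromosome, moved the other way, from 93.6 ± 8.99 to 175 ± 29.5 CPM (SD, n = 3), with a log2 fold change of 0.90 (adjusted p = 0.00447). The ratio of Selenbp2 to Selenbp1 was 0.779, 0.733 and 0.743 in HKO and 8.81, 10.2 and 10.9 in WT. The sources used here do not say how reads matching both genes were counted, and the levels of the pair are uncertain.

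Hsd3b5 (ENSMUSG00000038092, chromosome 3, 98618634 to 98630252, minus strand), a male-biased steroid dehydrogenase gene, stood at 4.67, 2.44 and 6.02 CPM in HKO and at 26.7, 17.0 and 17.5 CPM in WT. The groups were well apart, with HKO 2 the lowest and WT 1 the highest. Hsd3b5 had a log2 fold change of -2.20 (95% interval -2.95 to -1.46, adjusted p = 0.00331), and -1.92 without HKO 2 (adjusted p = 0.00126). Of the related genes, Hsd3b2 (log2 fold change -0.39), Hsd3b3 (0.27) and Hsd3b7 (-0.07) did not pass the test. Hsd3b1 was below the count filter, and Hsd3b4 and Hsd3b6 had no count in any library. Selenbp1, Cux1 and the Hsd3b genes were chosen as close relatives after the values of the 10 genes were known.

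**Figure D4:**
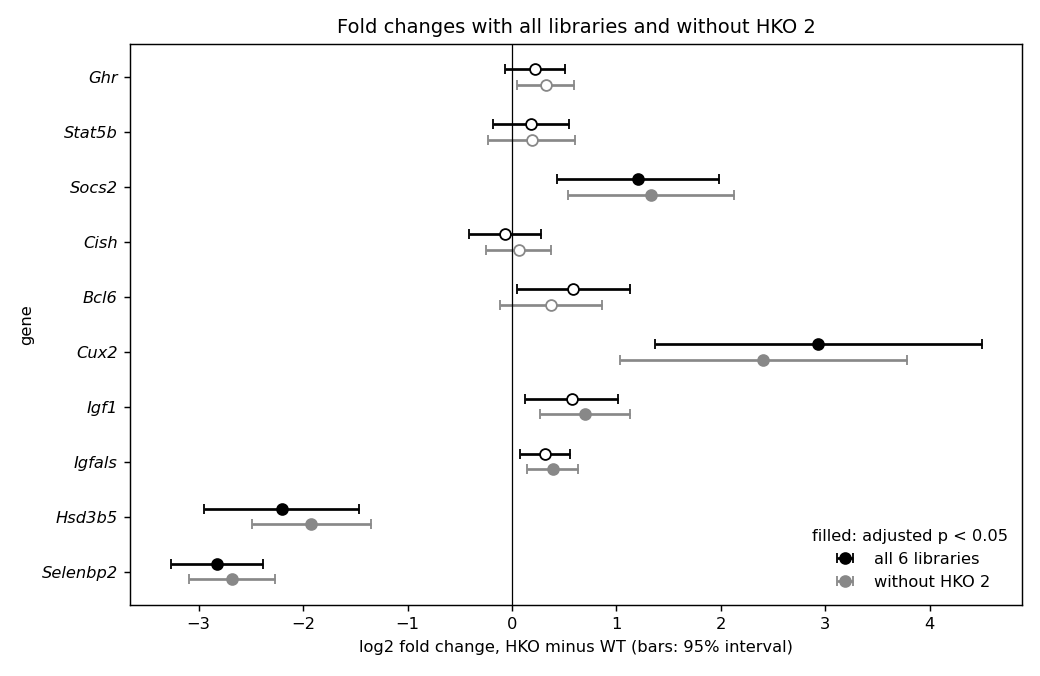
Log2 fold change of HKO over WT for the 10 genes with its 95% interval, with all 6 libraries (black) and without HKO 2 (grey), filled where the adjusted p was below 0.05. Socs2, Cux2, Hsd3b5 and Selenbp2 are filled in both, and Igf1 and Igfals only without HKO 2.

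Of 24 other tested genes of receptor signalling 2 were higher, 2 lower and 20 not called, a share of calls near the 23.2% of all tested genes, and the median was 0.03 on the log2 scale. Lepr, the leptin receptor gene, which signals through the same kinase, rose from 1.85 ± 0.869 to 19.8 ± 1.501 CPM (log2 fold change 3.43, adjusted p = 0.000359). Sh2b3, an adaptor that restrains JAK2, also rose (0.84, adjusted p = 0.0108). Socs3, the feedback inhibitor that STAT3 induces, fell with -0.77 (adjusted p = 0.0324). This call was lost without HKO 1, HKO 3, WT 2 or WT 3 (adjusted p = 0.0827, 0.0960, 0.0950 and 0.106). The kinase gene Jak2 (-0.39, adjusted p = 0.130), Stat5a, the neighbour and close relative of Stat5b (-0.31, adjusted p = 0.0881), and Stat3 (0.03, adjusted p = 0.895) did not pass. Socs1 was below the count filter.

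Of 18 genes listed for the IGF system, which include the hormone gene Fgf21, 10 passed the count filter. By edgeR 6 of the 10 were higher, Fgf21 among them, and 4 not called, where 12.1% of all tested genes were higher. Igfbp3 (6, 6 and 7 counts in WT) and Fgf21 (11, 12 and 8) reached the count filter only with their HKO libraries. Their entry to the test thus depended on being high in HKO. The list median was 1.21 on the log2 scale, or 0.91 without HKO 2. Lower calls numbered 0 by edgeR, DESeq2 and limma-voom, and 0 at an unadjusted p below 0.05, since all 10 fold changes were above 0. Igfbp1, whose protein binds IGF-1 and rises in fasting, rose from 77.5 ± 35.8 to 279 ± 78.8 CPM (log2 fold change 1.85, adjusted p = 0.0115). Igfbp2 rose from 227 ± 29.3 to 491 ± 61.9 CPM (log2 fold change 1.11, adjusted p = 0.00162). Igfbp4 rose from 783 ± 58.9 to 1266 ± 145 CPM (log2 fold change 0.69, adjusted p = 0.00827, and 0.0502 without WT 3). Igfbp3, the main carrier of IGF-1 in blood and a gene of nonparenchymal liver cells, rose from 0.366 ± 0.0531 to 1.96 ± 0.778 CPM (log2 fold change 2.40, adjusted p = 0.00650). It was highest in HKO 2, at 2.85 CPM, where endothelial markers were highest too, and the part of other cells was not tested. Fgf21, a hormone gene of fasting that dampens growth hormone action, rose from 0.591 ± 0.0946 to 4.76 ± 1.34 CPM (log2 fold change 2.99, adjusted p = 0.000967). The receptor gene Igf1r was below the count filter.

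Male-biased genes outside the 10 moved in both directions. Of 24 tested, 12 were lower, 3 higher and 9 not called, where 11.2% of all tested genes were lower and 12.1% higher. Their median log2 fold change was -0.53. Most of the lower genes were related urinary protein genes, namely Mup1, Mup3, Mup7, Mup11, Mup15, Mup17 and Mup21. The urinary protein gene Mup7 (-2.24), the protease inhibitor gene Serpina1e (-2.02), the peroxisomal hydrolase gene Nudt7 (-0.998) and the complement gene C8b (-0.60) fell. The higher genes were the cytochrome P450 genes Cyp4a12b (2.08), Cyp2d9 (1.07) and Cyp4a12a (1.36, with the call lost without WT 3, adjusted p = 0.0577). Elovl3, a fatty acid elongase gene, did not pass (0.01, adjusted p = 0.970). Mup20, the gene of a male pheromone protein, did not pass with all libraries (0.61, adjusted p = 0.122) and was higher without HKO 2 (0.83, adjusted p = 0.0182). Without HKO 2, 6 of the list rose and 10 fell. Counts of Mup genes, Cyp4a12a and Cyp4a12b, and Serpina1e are uncertain because each has near-identical copies.

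Of 30 female-biased genes 18 passed the count filter. Of these 7 were higher, 1 lower and 10 not called, where 12.1% of all tested genes were higher and 11.2% lower. Cyp2a4, with 39, 3 and 5 counts in WT, passed the count filter only through HKO, where it was high. The list median was 0.62 on the log2 scale, or 0.29 without HKO 2. Cyp2a4, a steroid hydroxylase gene with near-identical copies, stood at 182, 234 and 167 CPM in libraries HKO 1, HKO 2 and HKO 3 and at 2.17, 0.169 and 0.305 CPM in WT. Its log2 fold change was 7.75, and 9.64 without WT 1. Fmo2, a flavin monooxygenase gene (3.47), Acot3, a thioesterase gene (3.31), and Prlr, the prolactin receptor gene (0.54, adjusted p = 0.00953), rose in HKO with and without HKO 2. The gene that fell was Atp6v0d2, a proton pump subunit gene, with a log2 fold change of -2.35 (adjusted p = 0.0195), or -3.37 without HKO 2. Its call was lost without HKO 1, WT 1 or WT 3 (adjusted p = 0.0636, 0.0522 and 0.0688). Without HKO 2, 7 of the list rose and 4 fell. The additional lower calls were Cyp2c40 (-5.18), Cyp2c69 (-3.47) and Prom1 (-2.58), named after their values were seen. Without HKO 2 these genes passed the count filter only through WT, with 2 to 8 counts in HKO 1 and HKO 3. HKO 2 held these at 18.9, 4.77 and 5.47 CPM.

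Among 15 liver factors that act beside STAT5, 2 were higher, 1 lower and 12 not called, a share of calls near the 23.2% of all tested genes, and the median was 0.17 on the log2 scale. Without HKO 2, 4 were higher and 1 lower, with Hnf4a and Zhx2 (0.49, adjusted p = 0.0286) added, and the median was 0.23. Zhx2 is named after its values were seen. Nr1i3, the gene of the xenobiotic receptor CAR, rose by 1.24 on the log2 scale, and Cebpb, a factor of the acute phase response, by 1.27. Nr3c1, which encodes the glucocorticoid receptor, a partner of STAT5 in liver, fell with -0.49 (adjusted p = 0.0255). Its call was lost without WT 1, WT 2 or WT 3 (adjusted p = 0.0564, 0.0748 and 0.0825). Hnf4a, a master factor of hepatocytes, did not pass with all libraries (0.45, adjusted p = 0.0682) and rose without HKO 2 (0.52, adjusted p = 0.0475). Onecut1, a factor that responds to growth hormone, did not pass (0.16, adjusted p = 0.478).

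**Figure D5:**
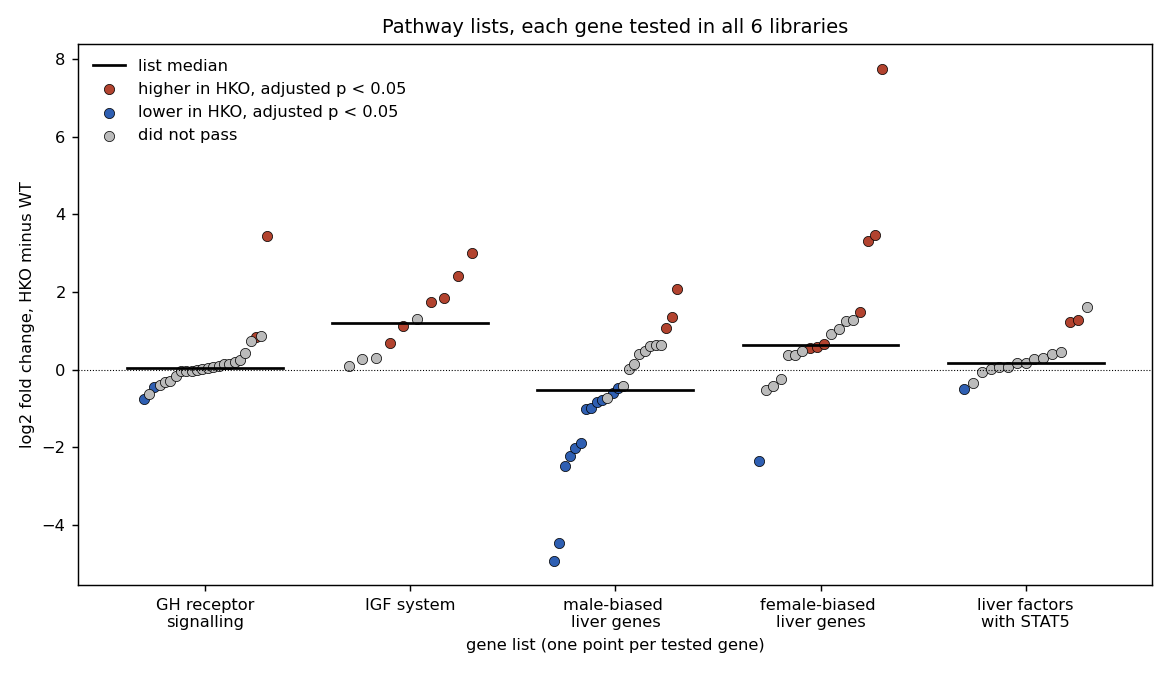
Log2 fold change of HKO over WT for each tested gene of the 5 pathway lists, with genes past an adjusted p of 0.05 in red (higher) or blue (lower), the others in grey and the list median as a bar. The IGF system lies above 0 with a median of 1.21, and the male-biased genes spread from -4.92 (Mup17) to 2.08 (Cyp4a12b).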

How the data were processed

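For every gene and library the deposited table gives a raw count and an FPKM value, per the file headers. The submitters' processing notes name HISAT2 2.0.4, StringTie 1.3.0, mm10 and GRCm38.p4, without settings. Counts were analysed with edgeR 4.0.16 in R 4.3.3: genes were kept by filterByExpr (12556 of 34745), libraries scaled by TMM, and HKO set against WT in glmQLFTest, with no replicate block. P-values were adjusted by the Benjamini-Hochberg method over all tested genes and called below 0.05 (the edgeR quasi-likelihood test). Standard errors are the absolute log2 fold change over the square root of F, and 95% intervals use the test's degrees of freedom. The depth of 16659778 to 21168233 counts leaves genes such as Cux2 with few counts. Alternatives were edgeR's RLE factors, no count filter, DESeq2 1.42.0, limma-voom (limma 3.58.1), a replicate block, mitochondrial genes left out, and each library left out. Scripts were tested on simulated data. No strand-marking step is described in the labels' protocols.

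The 10 genes and the gene lists were chosen with earlier results of these data known, and 193 of 194 list entries matched. Lists are described by counts and medians. Named genes are the 10, for each pathway list the 4 called genes of smallest adjusted p per direction, and 13 genes set by name, while genes named otherwise were chosen after their values were seen. Some genes these rules select are not reported here. Coordinates are those of the deposited table on GRCm38, counted from 1; lengths and overlaps come from GENCODE M21, and promoter sequences from RefSeq (GRCm38.p6).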

Additional observations from a re-analysis of the deposited data

How the results depend on the processing

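Results of the 10 genes kept their direction under RLE factors, no count filter, DESeq2, limma-voom, the replicate block and without mitochondrial genes. The calls also held there, except that DESeq2 called Igf1 too. It also called 5 of the male-biased list higher, against 3. With a library left out, 0 (without WT 3) to 4 (without HKO 2) of the 10 genes were higher, 1 without HKO 1, HKO 3 or WT 2, and 2 were lower each time. All genes higher ran from 722 to 1589 and lower from 682 to 1546. The receptor signalling list ran from 2 to 3 higher and 0 to 2 lower. The IGF system ran from 4 to 6 higher with 0 lower. The male-biased list ran from 2 to 6 higher and 9 to 12 lower, the female-biased list from 4 to 7 higher and 0 to 4 lower, and the liver factors from 2 to 4 higher and 0 to 1 lower. Cish ran from -0.21 to 0.065 on the log2 scale and turned sign without HKO 2, where it was 0.065. The cause was not tested. Replicate numbers did not pair the libraries: same-numbered deviations correlated at -0.00192, 0.00248 and 0.0717. With the replicate block 1245 genes were higher and 1115 lower, and 2 of the 10 genes were higher and 2 lower. Scaling levels by the GENCODE length was chosen after seeing the data. Cux2 rests on 2 to 15 counts in WT, which limits its fold change.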

Other observations

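Several female-biased liver genes were near 0 in 5 libraries and present in HKO 2, and those named here, chosen after their values were seen, did not pass the count filter. Sult2a1 stood at 32.9 CPM in HKO 2 and at 0 to 0.215 CPM elsewhere, and Sult2a2 at 25.9 CPM against 0 to 0.500 CPM. Cyp2b9 stood at 24.2 CPM against 0 to 0.488 CPM. Cyp3a41a and Cyp2b13 stood at 17.6 and 12.0 CPM in HKO 2 and had no count in the other 5 libraries. Cyp2a4, in contrast, was at 182 and 167 CPM in HKO 1 and HKO 3, where Xist was at 0.107 and 0.228 CPM.

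For each of the 4 called genes, up to 3 tested genes with the most similar pattern are given, ranked by the root mean square difference of centred log2 CPM over the 6 libraries. Nearest to Socs2 were Gm9847 (0.0998), Sema5b (0.150) and Icos (0.150). Nearest to Cux2 were Inhbb (0.377) and Pla2g4b (0.428). Nearest to Hsd3b5 were Gm29856 (0.233) and the urinary protein genes Mup7 (0.238) and Mup8 (0.280). Nearest to Selenbp2 were the acute phase gene Saa1 (0.147), Gt(ROSA)26Sor (0.257) and Cyb561 (0.266). With 6 libraries in 2 groups, likeness of this kind rests largely on the difference between the groups.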
